A study of Mus musculus with 19 samples.

Results

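The genes described here are 10 mouse genes of the NRF2 and glutathione system: *Nfe2l2*, which encodes NRF2 itself, and *Gclc*, *Gclm*, *Nqo1*, *Txnrd1*, *Srxn1*, *Gsta4*, *Gstm1*, *Gstm3*, and *Gpx2*. They were taken by name from a written list and matched by symbol to 10 of the 55487 genes of the count tables, and all 10 were among the 17875 genes that passed the low-count filter. RNA came from small intestinal crypts of 19 male and female C57BL/6 mice aged 10 to 16 weeks, with 1 library for each mouse. The design crosses genotype with diet, giving 5 *Nt*+/+ and 4 *Nt*-/- mice fed standard chow ad libitum, and 5 *Nt*+/+ and 5 *Nt*-/- mice given only water for 48 hours. *Nt*-/- mice lack neurotensin, a peptide of enteroendocrine cells, and the crypts were released with EDTA from the small intestine without its distal part and were not sorted. The strain is that of the labels. Labelled male were *Nt*+/+ replicates 3 and 5 in each diet, *Nt*-/- ad libitum replicate 4, and *Nt*-/- fasted replicate 3. *Nt*-/- fasted replicate 5 has no sex label, and the rest are labelled female. The study also kept both genotypes with an Lgr5-EGFP reporter allele, and the labels do not say whether the 19 mice carried it.

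NRF2 is a transcription factor that is held at a low level by KEAP1, which hands it to a ubiquitin ligase for degradation. When electrophiles or oxidants modify KEAP1, NRF2 accumulates without any need for more of its own mRNA, pairs with small MAF proteins, and activates genes that carry antioxidant response elements. Those genes make and use glutathione, reduce quinones and thioredoxin, and supply NADPH. In the intestine, glutathione protects an epithelium that meets food-derived electrophiles and microbial oxidants, and several glutathione transferases are typical of differentiated enterocytes, whereas *Gpx2* is best known in the proliferating cells at the crypt base.

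NRF2 with a small MAF protein binds the antioxidant response element, whose core was searched as TGACNNNGC, and the related NF-E2 type letters TGAGTCAGC were searched beside it. Both strands of the 250 bases before each RefSeq start site (build GRCm38.p6) were read. The 2 sets of letters cannot match at 1 position of 1 strand but can share bases across strands. Windows were at hand for 8 of the 10 genes (11 start sites), and those of *Gclc* and *Gsta4* were not analysed here. TGACNNNGC was found in 3 of the 11 windows and in 10.2% of all 32851 windows of the table. TGAGTCAGC was found in 1 of the 11 and in 0.347% of all. The 4 matches are shown because they are the places where the searched letters occur beside these genes. Each line runs 5′ to 3′ on the strand of the gene, with the matched letters in capitals.
Nfe2l2, minus strand, chr2:75704870-75704913: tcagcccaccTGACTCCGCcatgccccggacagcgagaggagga
Gclm, plus strand, chr3:122245398-122245456: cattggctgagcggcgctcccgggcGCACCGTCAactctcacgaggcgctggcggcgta
Txnrd1, plus strand, chr10:82859089-82859147: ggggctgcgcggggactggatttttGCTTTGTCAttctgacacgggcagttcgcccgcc
Srxn1, plus strand, chr2:152105454-152105512: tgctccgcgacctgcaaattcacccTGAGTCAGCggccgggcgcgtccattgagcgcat
The match began 240 bases before the start site in *Nfe2l2*, 134 in *Gclm*, 92 in *Txnrd1* (in 1 of its 3 windows), and 45 in *Srxn1*, and in *Gclm* and *Txnrd1* it lay on the opposite strand. The windows of *Nqo1*, *Gstm1*, *Gstm3*, and *Gpx2* held neither set of letters. Bases farther upstream and within the genes were not read, so an element there would have been missed. The 2 windows of *Gstm1* overlap each other. A match is only a match of letters, and no binding was measured.

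Total counts ranged from 9059457 to 35068711 per mouse (median, 18541819). *Nts*, the deleted gene, was at 4.98 to 8.59 CPM (counts scaled to library size) in *Nt*+/+ and at 0.144 to 0.793 CPM in *Nt*-/- mice. The mouse *Nt*+/+ fasted replicate 5 is *Nt*+/+ by its title and *Nt*-/- by its genotype tag. It was grouped by title, and its *Nts* value of 5.43 CPM lay inside the *Nt*+/+ range and above every *Nt*-/- mouse. By its *Nts* level it is therefore *Nt*+/+, as titled. In *Nt*+/+ ad libitum replicate 1, a single ribosomal RNA gene took 11.55% of the counts. Crypt genes were present in every mouse, among them the stem cell genes *Lgr5* and *Olfm4* and the Paneth cell gene *Lyz1*. Genes of stroma, endothelium, and muscle summed to at most 11.7 CPM over 10 markers in any mouse. Of its endothelial genes, the cadherin *Cdh5* was at 0 counts in 9 mice, whereas *Pecam1* was counted in every mouse (mean, 1.44 CPM). The sum of 11 leukocyte markers was higher, from 86.1 to 213 CPM.

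Fasting changed 6 of the 10 genes in each genotype (5 higher and 1 lower), where a change is an adjusted p under 0.05 over all genes tested by edgeR's quasi-likelihood test. The same test called 21.6% of all genes in *Nt*+/+ mice (11.2% higher, 10.4% lower) and 25.2% in *Nt*-/- mice (12.5% higher, 12.6% lower). The 10 genes were chosen with earlier results of these data known, so the shares describe them and are not a test. *Gstm1*, *Nqo1*, *Gclc*, and *Gclm* rose and *Gpx2* fell in both genotypes. *Gstm3* also passed the test in *Nt*+/+ mice, and *Txnrd1* also passed it in *Nt*-/- mice, and whether those 2 effects differed between the genotypes is tested below. The median log2 fold change of the 10 genes was 0.32 in *Nt*+/+ and 0.54 in *Nt*-/- mice, against −0.009 and −0.022 over all genes tested. In CPM, fasted and ad libitum–fed mice did not overlap for 5 of the 10 genes in *Nt*+/+ mice (14.6% of all genes). In *Nt*-/- mice this held for 6 of the 10 (21.3% of all genes). For some of these genes, levels per transcript length did overlap, as given below.

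**Figure D1:**
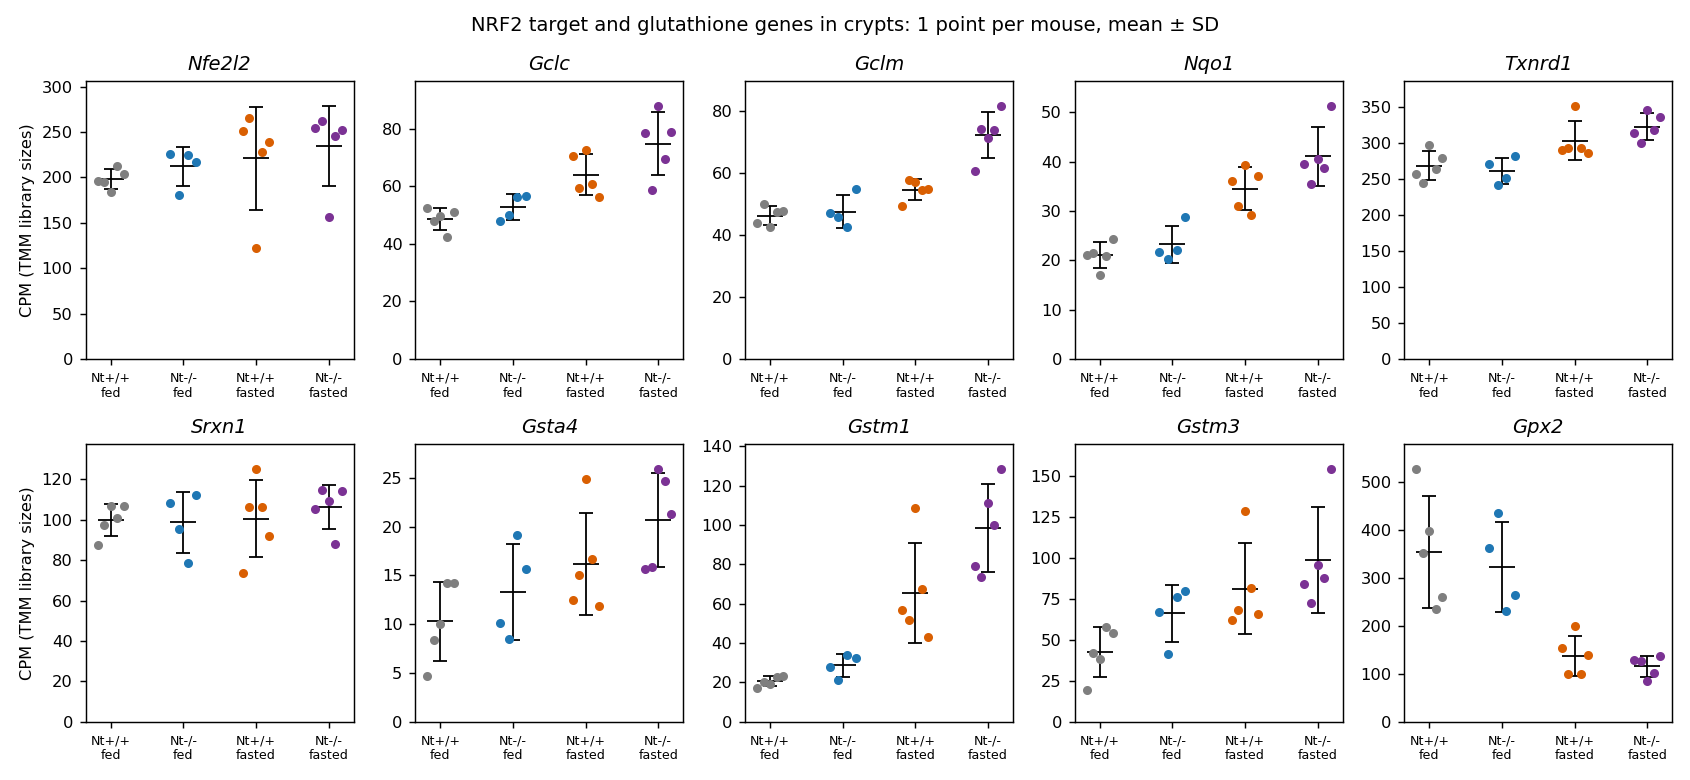
CPM of the 10 genes in 19 mice, 1 panel for each gene, with 1 point for each mouse and bars for the mean ± SD of the 4 groups (fed, ad libitum). *Gstm1* and *Nqo1* are higher in every fasted mouse than in any fed mouse, *Gpx2* is lower in every fasted mouse, and the 2 lowest *Nfe2l2* points, 122 and 156 CPM, belong to 1 fasted mouse of each genotype.

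The crypts differed between the diets in more than these genes. The sum of 10 villus enterocyte markers ranged from 4154 to 8406 CPM in ad libitum–fed *Nt*+/+ mice and from 7989 to 16531 CPM in fasted *Nt*+/+ mice. In *Nt*-/- mice it ranged from 6251 to 9274 CPM ad libitum and from 14647 to 19592 CPM fasted. With fasting, 7 of those 10 markers rose in *Nt*+/+ and 9 in *Nt*-/- mice. The sum of 6 proliferation markers moved the other way, from between 1523 and 1737 CPM to between 979 and 1327 CPM in *Nt*+/+ mice, and from between 1465 and 1594 CPM to between 859 and 1118 CPM in *Nt*-/- mice. Of the 6, 4 fell in *Nt*+/+ and 5 in *Nt*-/- mice. Paneth cell markers overlapped widely, and 0 of 9 in *Nt*+/+ and 1 of 9 in *Nt*-/- mice passed the test. Of 6 crypt stem cell markers, 1 and 2 fell, and of 7 goblet cell markers, 1 rose in each genotype while 2 and 3 fell. Of 7 enteroendocrine markers, 1 rose in each genotype, 0 of 5 tuft cell and 0 of 7 stromal markers changed, and of 10 leukocyte markers 1 fell in *Nt*+/+ while 1 rose and 1 fell in *Nt*-/- mice. In bulk RNA, a shift in the share of a cell type and a change of RNA within its cells cannot be told apart, and the part of these marker shifts in the results on the 10 genes was not tested.

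**Figure D2:**
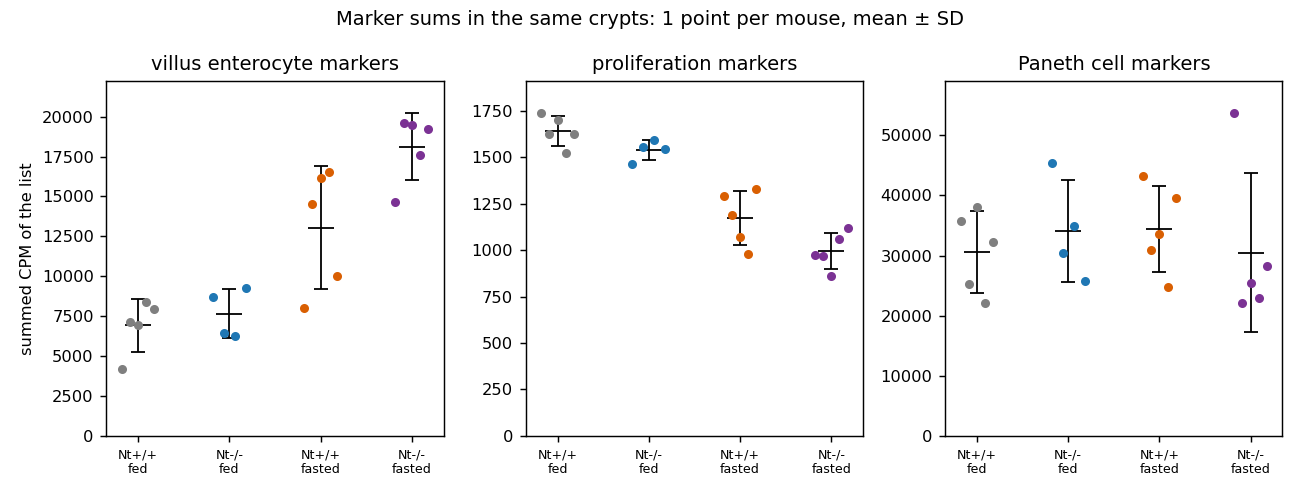
Summed CPM of the villus enterocyte, proliferation, and Paneth cell marker lists in 19 mice, with 1 point for each mouse and bars for the mean ± SD. Every fasted *Nt*-/- mouse has a higher enterocyte sum (14647 CPM or more) than every ad libitum–fed mouse (9274 CPM or less), every fasted mouse has a lower proliferation sum than every fed mouse, and the Paneth sums overlap.

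*Nfe2l2* (ENSMUSG00000015839; chromosome 2, 75675513–75704641, minus strand, GRCm38) is the regulator of the list. Its level was 196, 195, 184, 213, and 204 CPM in the 5 ad libitum–fed *Nt*+/+ mice and 225, 181, 225, and 217 CPM in the 4 ad libitum–fed *Nt*-/- mice. It was 251, 265, 122, 227, and 238 CPM in fasted *Nt*+/+ and 255, 262, 156, 246, and 252 CPM in fasted *Nt*-/- mice. In CPM, 4 of 5 mice in each fasted group lay above all ad libitum–fed mice of their genotype and 1 lay below them all. In both groups that one is the mouse numbered 3 in the titles. Both are labelled male, as is *Nt*+/+ fasted replicate 5, which was at 238 CPM. The log2 fold change with fasting was 0.16 (95% interval −0.18 to 0.49) in *Nt*+/+ mice and 0.14 (−0.22 to 0.50) in *Nt*-/- mice, with adjusted p values of 0.54 and 0.596. Leaving out both mice numbered 3, chosen because their *Nfe2l2* stood apart, gave 0.31 (adjusted p = 0.00692) and 0.26 (adjusted p = 0.0225), values that the choice of mice itself raises. *Nfe2l2* mRNA was among the more abundant of the crypt, at 97.7 ± 13.9 TPM (a level per transcript length; mean ± SD over 5 mice) in *Nt*+/+ mice fed ad libitum, above 94.8% of the genes tested. In TPM the pattern of the fasted mice did not hold in full. *Nt*-/- fasted replicate 3 (95.6) lay above *Nt*-/- ad libitum replicate 2 (92.6). *Nt*+/+ fasted replicate 5 (102) and *Nt*-/- fasted replicate 1 (108) lay below the highest fed mice of their genotypes (110 and 116).

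Glutamate-cysteine ligase makes the first and rate-limiting bond of glutathione, with *Gclc* encoding its catalytic subunit and *Gclm* its modifier. *Gclc* (ENSMUSG00000032350; chromosome 9, 77754535–77794485, plus strand) was 52.3, 48.1, 49.6, 42.4, and 51.2 CPM in ad libitum–fed and 70.7, 59.5, 72.5, 60.9, and 56.4 CPM in fasted *Nt*+/+ mice. It was 48.1, 50.2, 56.5, and 56.6 CPM in ad libitum–fed and 78.5, 58.9, 87.8, 69.6, and 78.9 CPM in fasted *Nt*-/- mice. In CPM the diets did not overlap in either genotype. The highest fed and lowest fasted mice were close, however (52.3 and 56.4 CPM in *Nt*+/+, 56.6 and 58.9 CPM in *Nt*-/-). In TPM the diets overlapped in both genotypes. There the highest fed and lowest fasted mice were at 20.45 and 18.7 in *Nt*+/+, and at 25.3 and 23.4 in *Nt*-/-. *Gclc* rose by a log2 fold change of 0.39 (SE 0.098, adjusted p = 0.00668) in *Nt*+/+ and 0.50 (SE 0.104, adjusted p = 0.00146) in *Nt*-/- mice. 

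*Gclm* (ENSMUSG00000028124; chromosome 3, 122245557–122270732, plus strand) was 43.9, 49.95, 42.5, 47.4, and 47.8 CPM in ad libitum–fed *Nt*+/+ and 47.3, 45.8, 42.5, and 54.9 CPM in ad libitum–fed *Nt*-/- mice. After fasting it was 49.2, 57.6, 57.2, 54.4, and 55.0 CPM in *Nt*+/+ mice and 60.8, 74.1, 71.4, 74.1, and 81.6 CPM in *Nt*-/- mice. In CPM, all 5 fasted *Nt*-/- mice were therefore above all 14 other mice. In the same unit, 4 of 5 fasted *Nt*+/+ mice were above all fed *Nt*+/+ mice. In TPM the groups overlapped. *Gclm* ranged from 54.3 to 82.3 TPM in fasted *Nt*-/- and from 44.7 to 67.25 TPM in fasted *Nt*+/+ mice. It reached 61.0 TPM in fed *Nt*-/- mice. *Gclm* rose by a log2 fold change of 0.60 (SE 0.086, adjusted p = 4.92e-05) in *Nt*-/- mice. In *Nt*+/+ mice it rose by 0.24 (SE 0.08, adjusted p = 0.0388), and that call was lost without any 1 of 8 of the 10 mice (all but ad libitum replicate 2 and fasted replicate 1), with adjusted p values from 0.0541 to 0.0951.

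Expressed per length, the ratio of *Gclc* to *Gclm* was 0.398 in ad libitum–fed *Nt*+/+, 0.454 in ad libitum–fed *Nt*-/-, 0.433 in fasted *Nt*+/+, and 0.417 in fasted *Nt*-/- mice (geometric means). The log2 ratio differed by 0.12 with fasting in *Nt*+/+ mice and by −0.12 in *Nt*-/- mice, and none of the 4 comparisons passed (two-sided exact permutation tests, p from 0.19 to 0.833, adjusted over 4 comparisons from 0.651 to 0.833). The SD of the log2 ratio within a group was between 0.078 and 0.365.

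*Nqo1* (ENSMUSG00000003849; chromosome 8, 107388225–107403206, minus strand) encodes a quinone reductase and is a widely used readout of NRF2 activity. It was 21.1, 21.6, 17.0, 20.9, and 24.4 CPM in ad libitum–fed and 36.1, 30.9, 39.4, 29.1, and 37.1 CPM in fasted *Nt*+/+ mice. Values in *Nt*-/- mice were 21.7, 20.3, 22.0, and 28.8 CPM ad libitum and 39.5, 35.4, 40.5, 38.7, and 51.2 CPM fasted. In CPM, every fasted mouse was above every ad libitum–fed mouse. In TPM, *Nt*+/+ fasted replicate 4 (23.2) lay below *Nt*-/- ad libitum replicate 4 (24.2), with no overlap within a genotype. *Nqo1* rose by a log2 fold change of 0.72 (SE 0.119, adjusted p = 0.000283) in *Nt*+/+ and 0.83 (SE 0.127, adjusted p = 0.000103) in *Nt*-/- mice.

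*Txnrd1* and *Srxn1* serve the thioredoxin branch. *Txnrd1* (ENSMUSG00000020250; chromosome 10, 82833951–82897712, plus strand), the cytosolic thioredoxin reductase, was the second most abundant of the 10 genes per length in ad libitum–fed *Nt*+/+ mice, at 116 ± 11.8 TPM (mean ± SD). It ranged from 241 to 282 CPM ad libitum and from 301 to 347 CPM fasted in *Nt*-/- mice, with no overlap. It rose there by a log2 fold change of 0.31 (SE 0.079, adjusted p = 0.00766). In TPM it did overlap there, at 124 in the highest fed and 113 in the lowest fasted mouse. In *Nt*+/+ mice it ranged from 245 to 298 CPM ad libitum and from 287 to 352 CPM fasted, and only 1 fasted mouse lay above all fed mice. The log2 fold change there was 0.18 (SE 0.074, adjusted p = 0.10), and it was 0.0157 when mice were blocked by file number. *Srxn1* (ENSMUSG00000032802; chromosome 2, 152105516–152111376, plus strand), sulfiredoxin, which restores overoxidised peroxiredoxins, ranged from 87.7 to 107 CPM ad libitum and from 73.6 to 125 CPM fasted in *Nt*+/+ mice, and from 78.6 to 112 CPM and from 88.0 to 115 CPM in *Nt*-/- mice, with overlap in both genotypes. Its log2 fold change with fasting was 0.01 (95% interval −0.24 to 0.26) in *Nt*+/+ and 0.10 (−0.16 to 0.37) in *Nt*-/- mice.

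Glutathione transferases join glutathione to electrophiles, and *Gstm1* had the largest log2 fold change of the 10 genes in either genotype. *Gstm1* (ENSMUSG00000058135; chromosome 3, 108012255–108017973, minus strand) was 17.4, 20.4, 19.3, 22.8, and 23.4 CPM in ad libitum–fed and 56.6, 51.9, 109, 67.3, and 43.1 CPM in fasted *Nt*+/+ mice. In *Nt*-/- mice it was 27.8, 21.0, 33.9, and 32.5 CPM ad libitum and 79.4, 73.6, 111, 99.9, and 129 CPM fasted. The lowest fasted mouse, at 43.1 CPM, was above the highest fed mouse, at 33.9 CPM. In TPM, *Nt*+/+ fasted replicate 5 (35.9) lay below *Nt*-/- ad libitum replicate 4 (38.1), with no overlap within a genotype. *Gstm1* rose by a log2 fold change of 1.67 (SE 0.211, adjusted p = 1.76e-05) in *Nt*+/+ and 1.78 (SE 0.226, adjusted p = 1.5e-05) in *Nt*-/- mice, which in group means is 3.17 and 3.42 times the fed level.

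*Gstm3* (ENSMUSG00000004038; chromosome 3, 107963696–107969283, minus strand), its neighbour in the mu class cluster, ranged from 19.4 to 58.1 CPM in ad libitum–fed and from 62.2 to 129 CPM in fasted *Nt*+/+ mice. It rose there by a log2 fold change of 0.94 (SE 0.27, adjusted p = 0.017), a call that was lost without fasted replicate 3, the highest mouse (0.71, adjusted p = 0.0633). In *Nt*-/- mice it ranged from 41.3 to 79.9 CPM ad libitum and from 72.3 to 154 CPM fasted, with a log2 fold change of 0.58 (SE 0.285, adjusted p = 0.147). *Gsta4* (ENSMUSG00000032348; chromosome 9, 78182774–78209349, plus strand), an alpha class transferase that clears 4-hydroxynonenal from peroxidised lipid, was the least abundant of the 10 genes per length, at 13.5 ± 5.99 TPM in ad libitum–fed *Nt*+/+ mice. Its group means were 10.3 and 16.2 CPM (fed and fasted *Nt*+/+) and 13.3 and 20.7 CPM (fed and fasted *Nt*-/-), with overlap in both genotypes. The log2 fold changes of 0.65 (SE 0.281, adjusted p = 0.104) and 0.64 (SE 0.297, adjusted p = 0.126) did not pass. They passed in the fits with the replicate numbers as a block, with adjusted p values of 0.0142 and 0.0229 for the title numbers and 0.0127 and 0.0416 for the file numbers.

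The mu class genes are alike in sequence. Of the windows of 100 bases, the read length, in annotated transcripts, 5.86% in *Gstm1* and 13.8% in *Gstm3* also occur in another gene (mostly *Gstm2-ps1* and *Gm8834*, with *Gstm3* for *Gstm1* and *Gstm6* for *Gstm3*), and RSEM gave both genes fractional counts in every mouse. The share was 2.44% in *Gclm*, 1.55% in *Gpx2*, and 0% in the other 6 genes. Counts were also fractional in 94.7% of mice for *Gpx2*, which shares windows with *Gpx2-ps1*, and in 15.8% for *Gclm*. Values of these 4 genes therefore depend in part on how RSEM divided shared reads.

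*Gpx2* (ENSMUSG00000042808; chromosome 12, 76792333–76795554, minus strand) encodes the glutathione peroxidase of the gut epithelium and was the most abundant of the 10 genes per length, at 410.0 ± 97.8 TPM in ad libitum–fed *Nt*+/+ mice, above 98.7% of the genes tested. It was 528, 351, 398, 236, and 259 CPM in ad libitum–fed and 153, 99.0, 199.9, 101, and 138 CPM in fasted *Nt*+/+ mice. In *Nt*-/- mice it was 362, 436, 231, and 265 CPM ad libitum and 128, 126, 84.7, 101, and 137 CPM fasted. Every fasted mouse was below every ad libitum–fed mouse. *Gpx2* fell by 1.36 on the log2 scale (SE 0.233, adjusted p = 0.00037) in *Nt*+/+ and by 1.49 (SE 0.244, adjusted p = 0.000203) in *Nt*-/- mice, to 0.39 and 0.357 of the fed mean. It was the only one of the 10 genes that fell.

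**Figure D3:**
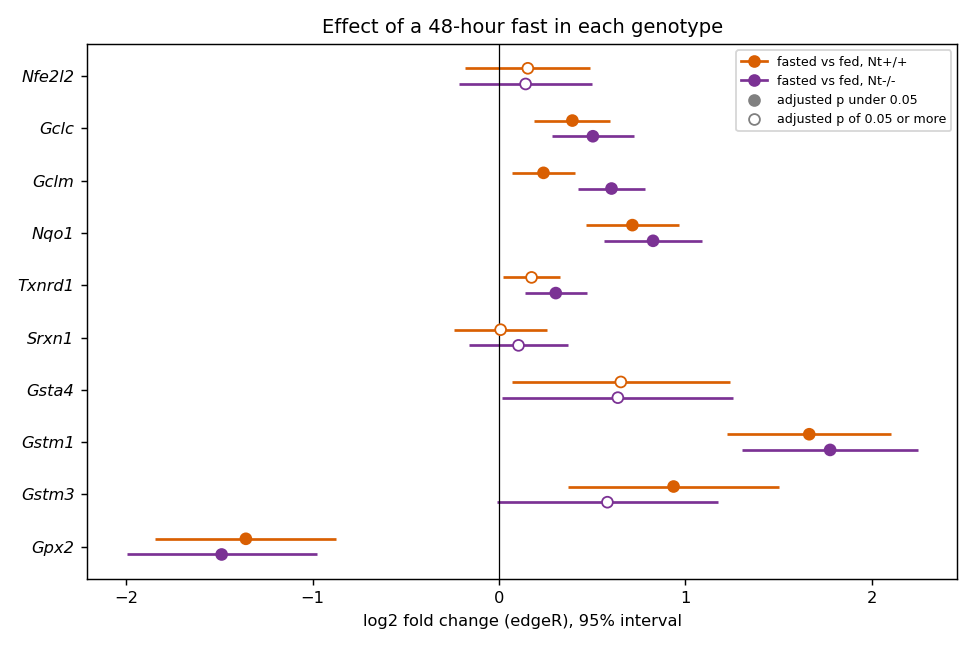
Log2 fold change with a 48-hour fast (x axis) for each of the 10 genes in *Nt*+/+ and *Nt*-/- mice, as points with 95% intervals, filled where the adjusted p is under 0.05. *Gstm1* lies at 1.67 and 1.78, *Gpx2* at −1.36 and −1.49, and *Gclm* is the only gene whose intervals do not overlap (0.07 to 0.41 and 0.43 to 0.78). The test of an unequal response between the genotypes called 0 of the 10 genes, so it did not call *Gclm*.

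Between genotypes, 0 of the 10 genes passed the test in either diet by edgeR's quasi-likelihood test, and 1 gene in all, *Nts*, passed it in each (0.00559% of all genes). Without adjustment, p was under 0.05 for 299 genes in fed and 1634 genes in fasted mice. The ad libitum–fed genotypes overlapped for all 10 genes (0.694% of all genes did not overlap). In fed mice the 95% interval left out 0 for *Gstm3*, with a log2 difference of 0.64 (*Nt*-/- minus *Nt*+/+; 0.05 to 1.23), and *Gstm1*, with 0.48 (0.02 to 0.94), both at an adjusted p of 1. The intervals of the other 8 genes included 0. Their log2 differences were 0.37 in *Gsta4* (−0.25 to 0.99), 0.14 in *Nqo1*, 0.12 in *Gclc*, 0.10 in *Nfe2l2*, 0.04 in *Gclm*, −0.02 in *Srxn1*, −0.04 in *Txnrd1*, and −0.13 in *Gpx2*.

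In fasted mice, *Gclm* was the gene with the third smallest p of all 17875, at a log2 difference of 0.40 (SE 0.08, 95% interval 0.24 to 0.57, unadjusted p = 6.83e-05, adjusted p = 0.162). In CPM, the fasted genotypes did not overlap for *Gclm*, which was true of 1 of the 10 genes and of 1.56% of all genes. In TPM they did overlap for *Gclm* (54.3 to 82.3 in *Nt*-/- and 44.7 to 67.25 in *Nt*+/+ mice). Of 21 alternatives, 18 did not call *Gclm* and 3 did. DESeq2 called it (adjusted p = 0.00495), as did edgeR's likelihood ratio test (0.0217). So did the quasi-likelihood test without *Nt*-/- fasted replicate 1 (0.0488). That mouse is the lowest of its group, so leaving it out itself raises the difference. In the blocked fits the adjusted p was 0.0655 (title numbers) and 0.0521 (file numbers). With 1 mouse left out at a time, the adjusted p of the quasi-likelihood test ranged from 0.0488 to 0.443. Over all alternatives it ranged from 0.00495 to 0.781. The highest came with the mouse of disagreeing labels moved to *Nt*-/-, against its *Nts* level. *Gstm1* differed by 0.59 (95% interval 0.17 to 1.01, adjusted p = 0.354), *Gclc* by 0.23 (0.02 to 0.43, adjusted p = 0.475), and *Nqo1* by 0.25 (0.01 to 0.50, adjusted p = 0.529). Of the 10 log2 differences 9 were above 0, the exception being *Gpx2* at −0.26 (−0.74 to 0.22). The log2 differences of the remaining members were 0.35 in *Gsta4* (−0.23 to 0.93), 0.28 in *Gstm3* (−0.27 to 0.84), 0.09 in *Txnrd1* (−0.06 to 0.25), 0.09 in *Nfe2l2* (−0.25 to 0.42), and 0.08 in *Srxn1* (−0.17 to 0.33). The median of the 10 was 0.24, against −0.013 over all genes tested. The villus enterocyte sum was also higher in fasted *Nt*-/- mice, with group means of 18113 against 13046 CPM and a median log2 difference of 0.45 over its 10 markers, of which 0 passed the test. All 6 proliferation, 6 crypt stem cell, and 7 goblet cell markers had log2 differences below 0 (medians −0.26, −0.31, and −0.21), and 0 of them passed. The part of these markers in the values of the 10 genes was not tested.

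**Figure D4:**
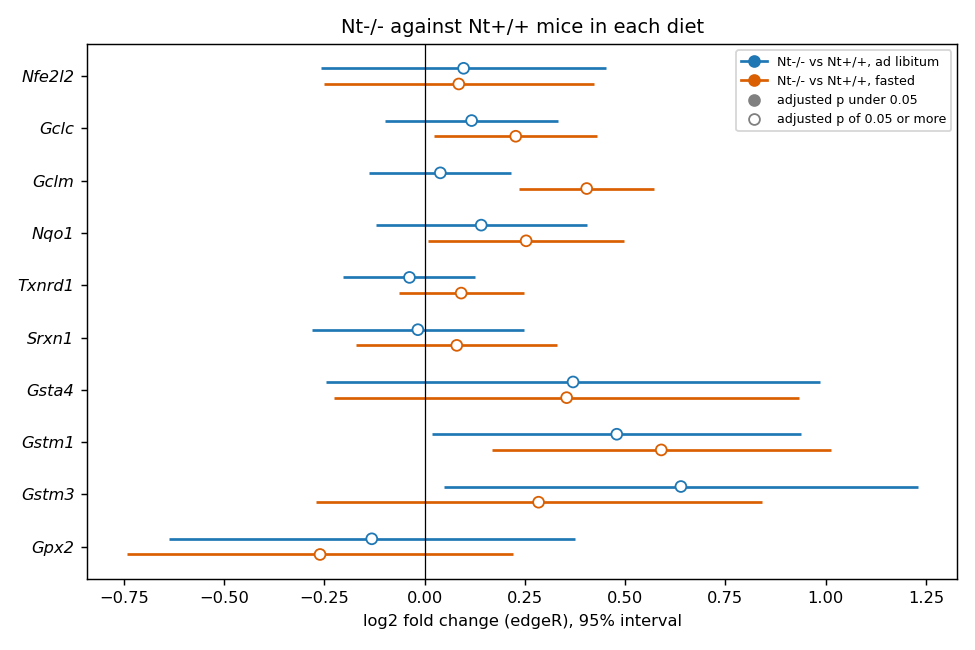
Log2 difference of *Nt*-/- from *Nt*+/+ mice (x axis) for each of the 10 genes, ad libitum and fasted, as points with 95% intervals; open points have an adjusted p of 0.05 or more. All points are open, and the fasted interval of *Gclm*, 0.24 to 0.57, is the farthest from 0 relative to its width.

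A test of whether the genotypes responded unequally to the fast called 0 of the 10 genes and 0 of all 17875 genes (0%) by edgeR's quasi-likelihood test. Without adjustment, p was under 0.05 for 485 genes, and the likelihood ratio test called 1. *Gclm* came closest, with fasting raising it by 0.37 more on the log2 scale in *Nt*-/- mice (SE 0.117, 95% interval 0.12 to 0.61, unadjusted p = 0.0055, adjusted p = 1). For *Gstm3* the difference was −0.36 (−1.17 to 0.46) and for *Txnrd1* 0.13 (−0.10 to 0.36), so neither gene was shown to respond in 1 genotype alone. The intervals for *Nqo1* (−0.25 to 0.47), *Gclc* (−0.19 to 0.41), and *Gstm1* (−0.51 to 0.74) also included 0, as did those for *Nfe2l2* (−0.50 to 0.48), *Srxn1* (−0.27 to 0.46), *Gsta4* (−0.86 to 0.83), and *Gpx2* (−0.83 to 0.57).

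The wider system was read from 7 lists of 110 further genes, of which 105 were tested. Fasting changed 50 of them in *Nt*+/+ mice (42 higher and 8 lower) and 48 in *Nt*-/- mice (41 higher and 7 lower), or 47.6% and 45.7%, against 21.6% and 25.2% of all genes. Their median log2 fold changes were 0.18 and 0.20. The 7 lists were chosen with earlier results of these data known, so these shares, and the counts per list below, are descriptions and not a test.

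The lists did not move alike. Of 21 other glutathione transferases tested, 13 rose in *Nt*+/+ and 12 in *Nt*-/- mice, and 0 fell. On the log2 scale, *Mgst1*, a membrane-bound transferase, rose by 1.39 in *Nt*+/+ and 1.68 in *Nt*-/- mice, *Gsta3* by 2.25 and 3.01, *Gstm7* by 0.98 and 0.93, and *Mgst3* by 0.46 and 0.68. Of 21 other NRF2 targets, 14 rose in each genotype and 0 fell. *Akr1b8*, an aldo-keto reductase, rose by a log2 fold change of 3.03 in *Nt*+/+ (SE 0.263, adjusted p = 1.93e-07) and 3.35 in *Nt*-/- mice (SE 0.293, adjusted p = 1.91e-07). *Cbr1*, a carbonyl reductase, rose by 1.17 and 1.33, and *Ptgr1*, which reduces lipid aldehydes and prostaglandins, by 0.90 and 1.27.

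Among 10 NRF2 regulators and partners, only *Sqstm1*, the autophagy receptor p62, which binds KEAP1, passed the test. It rose by 0.38 (SE 0.085, adjusted p = 0.00321) in *Nt*+/+ and 0.43 (SE 0.091, adjusted p = 0.00194) in *Nt*-/- mice. The median of that list was 0.00 and 0.07.

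Genes of glutathione synthesis, recycling, and breakdown were mixed, with 8 of 21 higher and 2 lower in *Nt*+/+ mice and 8 higher and 1 lower in *Nt*-/- mice. *Oplah*, 5-oxoprolinase of the gamma-glutamyl cycle, rose by 0.96 and 1.13. *Anpep*, a brush border peptidase that acts on the breakdown products of glutathione, rose by 0.89 and 1.08. *Abcc2*, an apical exporter of glutathione conjugates, rose by 0.70 and 0.80, and *Glrx*, glutaredoxin, by 0.49 and 0.78. *Abcc3*, a basolateral exporter, rose by 0.53 in *Nt*-/- mice and had a log2 fold change of 0.24 (adjusted p = 0.0658) in *Nt*+/+ mice. *Anpep* is itself a product of mature enterocytes.

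Of 14 peroxidases and dismutases, 3 rose in each genotype, while 1 fell in *Nt*+/+ and 2 fell in *Nt*-/- mice, so that 28.6% and 35.7% were called, against 21.6% and 25.2% of all genes. The medians were −0.06 and 0.00. The risers were *Sod1*, cytosolic superoxide dismutase (0.86 and 1.00), *Cat*, catalase (1.32 and 1.52), and *Gpx4*, which reduces lipid hydroperoxides (0.58 and 0.82). Those that fell, named after their values were seen, were *Prdx1*, a peroxiredoxin (−0.23), in *Nt*+/+ mice, and *Gpx1*, the widely expressed glutathione peroxidase (−0.32), and *Prdx2* (−0.30) in *Nt*-/- mice. Their values in the other genotype are not given here. Of the 105 list genes tested, 0 differed between the genotypes in their response to fasting. None of these falls was therefore shown for 1 genotype alone.

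In the thioredoxin system, 2 of 10 genes rose and 3 fell in *Nt*+/+ mice, and 2 rose and 2 fell in *Nt*-/- mice. *Txn1*, thioredoxin, the substrate of *Txnrd1*, fell by 0.46 (SE 0.076, adjusted p = 0.000269) in *Nt*+/+ and by 0.24 (SE 0.08, adjusted p = 0.0348) in *Nt*-/- mice. *Txnrd3* rose by 0.73 and 0.61, and *Msra*, a methionine sulfoxide reductase, by 0.31 and 0.48. *Sesn1* fell by 0.49 in *Nt*+/+ mice and was at −0.24 (adjusted p = 0.115) in *Nt*-/- mice. *Txn2*, the mitochondrial thioredoxin, fell by 0.24 in *Nt*-/- mice and was at −0.16 (adjusted p = 0.124) in *Nt*+/+ mice. Of 8 genes of NADPH supply, *Idh1*, cytosolic isocitrate dehydrogenase, rose by 0.61 and 0.84, whereas *Taldo1* and *Pgd*, of the pentose phosphate pathway, fell by 0.35 and 0.36 in *Nt*+/+ and by 0.35 and 0.33 in *Nt*-/- mice.

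**Figure D5:**
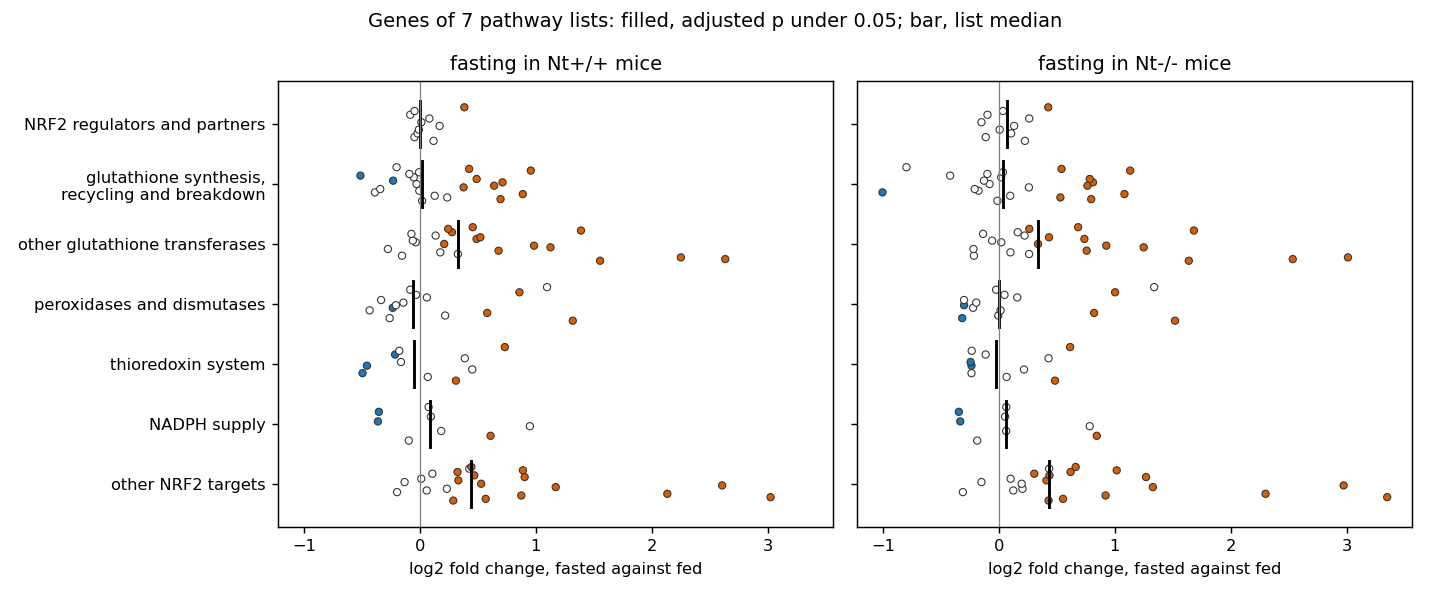
Log2 fold change with fasting (x axis) of the 105 tested genes of 7 lists in *Nt*+/+ (left) and *Nt*-/- mice (right), 1 point for each gene, colored where the adjusted p is under 0.05, with a bar at the list median. The transferases and other NRF2 targets have colored points to the right only, and the thioredoxin and NADPH lists have them on both sides.

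Between genotypes, 0 of the 105 genes passed the test ad libitum (0.00559% of all genes) or fasted (0.00559%), and 0 differed in their response to fasting. The smallest adjusted p among them was 0.195, for *Idh1* in fasted mice, with a log2 difference of 0.36 (SE 0.086).

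The genes whose log2 CPM ran closest to each member over the 19 mice were searched among 13070 genes with a mean log2 CPM of at least 1, and the group differences are part of each correlation. The first Pearson r is over all mice and the second, in parentheses, over deviations from the group means. They are descriptions over libraries that share a group and, in part, a replicate number. *Gclm* ran with *Pi4k2b* (0.977; 0.896) and *Slc35g1* (0.959; 0.789). *Gstm1* ran with *Rab4a* (0.976; 0.847) and *Cbr1* (0.973; 0.755). *Nqo1* ran with *Idh1* (0.952; 0.686) and *Zc3h12d* (0.95; 0.711), and *Gclc* with *Akr1c12* (0.934; 0.74) and *Coq8a* (0.934; 0.732). *Gsta4* and *Gstm3* shared a neighbour, *Nat8f5* (0.943; 0.894 and 0.921; 0.858), besides *Gsta1* (0.919; 0.941) for *Gsta4* and *Gm3776* (0.929; 0.91) for *Gstm3*. *Gpx2* ran with *Duox2*, the dual oxidase that makes hydrogen peroxide at the gut surface (0.964; 0.821), and *Coro1b* (0.956; 0.785). *Txnrd1* ran with *Lad1* (0.916; 0.834) and *Sec31a* (0.912; 0.788), *Srxn1* with *Myo1e* (0.898; 0.905), and *Nfe2l2* with *Fbxo28* (0.897; 0.89) and ENSMUSG00000061654 (0.896; 0.903).

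Within groups, the members did not move as 1 block. Over the 45 pairs of members, the correlation of the deviations from the group means ranged from −0.60 to 0.85 with a median of 0.24, and it was below 0 in 15 pairs. The 3 transferases ran together, with r of 0.85 between *Gsta4* and *Gstm3*, 0.82 between *Gstm1* and *Gstm3*, and 0.78 between *Gsta4* and *Gstm1*. *Nfe2l2* ran against *Txnrd1* (−0.59), *Gstm1* (−0.53), and *Gclc* (−0.51), and *Gpx2* ran against *Gsta4* (−0.60). These correlations of log2 CPM over 19 mice include the 2 fasted mice numbered 3, in which *Nfe2l2* was low in CPM. In those mice, *Txnrd1* (352 and 347 CPM) and *Gclc* (72.5 and 87.8 CPM) were the highest of their groups. *Gstm1* was also high there (109 and 111 CPM). The same 2 mice are part of the correlations of *Nfe2l2* with its 2 closest genes above. No correlation was computed without them.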

How the data were processed

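RNA-seq of small intestinal crypts from 19 mice (1 library each) was analysed in 4 groups taken from the sample titles. Libraries were depleted of ribosomal RNA by the authors and read from a single end. Trimmomatic 0.39 trimmed the reads, which were mapped with RSEM to Ensembl transcripts of GRCm38; the RSEM version and strand setting are not given in the sources used here. They deposited for each gene an expected count, which is not normalized and shares out reads that match several genes, together with the effective length in bases and TPM, which the authors scaled to gene length and library. Expected counts were rounded to whole numbers. Genes were filtered with filterByExpr and TMM-normalized, and all 4 groups were fitted in 1 model with edgeR (version 4.0.16; R version 4.3.3) and tested by its quasi-likelihood test with Benjamini-Hochberg adjustment over 17875 genes. CPM use TMM library sizes. SE was taken as |log2 fold change| over the root of the F statistic, and 95% intervals use the moderated degrees of freedom. Simulated counts for the fasting comparison in *Nt*+/+ mice held 17581 genes, of which 200 were changed. Of genes changed by 1 on the log2 scale 83% were recovered, of those changed by 0.585 46%, and 0.0345% of unchanged genes were called. In the data 21.6% of genes were called. The adjusted threshold is stricter when few genes change, so recovery in the data can be higher. The *Gclc* to *Gclm* ratio (expected count over effective length) was tested by two-sided exact permutation (scipy 1.17.1). TPM, as deposited, were used for levels between genes.

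The members, the 7 pathway lists, and the marker lists were chosen with earlier results of these data known. The text names all members in every comparison; per list and comparison, at most the 3 called genes with the smallest p, given in both genotypes for fasting; and, for each member, the 2 genes with the highest r. For *Srxn1*, 1 of the 2 is not reported here. *Nnt* matches 2 gene IDs and was left out. The peroxidase and dismutase list is an exception. There every called gene is named, and those that fell are given only in the genotype where they passed. Other genes called in the lists are counted, not named.

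Replicate numbers in the titles, and others in the file names that differ for 2 mice, are not explained. Over genes, deviations from the group means correlated by 0.184 on average in 27 same-numbered pairs by title (19 over 0.1) and by 0.227 by file number (24 over 0.1), against −0.046 and −0.056 in 108 other pairs. By file number, every pair was over 0.1 within each of the 4 comparisons of groups. By title, this held for fasting in *Nt*+/+ mice and for the genotypes in fasted mice only. Blocked values are given beside a result where they change the call.

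Alternatives were no low-count filter, a floor of 10 counts per mouse, DESeq2 (version 1.42.0), the likelihood ratio test of edgeR, upper quartile scaling, both blocks, a sex term in 18 mice, a fit to the compared groups alone, *Nt*+/+ fasted replicate 5 moved to *Nt*-/-, and each mouse left out in turn. Leaving out both fasted mice numbered 3 was added after the data were seen. Moving *Nt*+/+ fasted replicate 5 goes against its *Nts* level of 5.43 CPM. That setting places a mouse that expressed *Nts* among the *Nt*-/- mice.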

Additional observations from a re-analysis of the deposited data

Results flagged for a closer look

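In CPM, 4 of 40 sets of a gene and a group had a highest or lowest mouse far from the others by Dixon's test. Chance does this in about 1 in 20. *Nfe2l2* was 122 CPM in *Nt*+/+ fasted replicate 3, against 227 to 265 CPM in the other 4 mice of the group. *Nfe2l2* was 156 CPM in *Nt*-/- fasted replicate 3, against 246 to 262 CPM in the others. *Txnrd1* was 352 CPM in *Nt*+/+ fasted replicate 3, against 287 to 294 CPM. *Gstm3* was 154 CPM in *Nt*-/- fasted replicate 5, against 72.3 to 95.6 CPM. The first 3 values come from the 2 fasted mice with the same number in their titles. TPM were not put to Dixon's test. In TPM, *Nfe2l2* was 66.1 in *Nt*+/+ fasted replicate 3 (others 102 to 144) and 95.6 in *Nt*-/- fasted replicate 3 (108 to 146). *Txnrd1* was 149 TPM in *Nt*+/+ fasted replicate 3 (others 103 to 139), and *Gstm3* was 136 TPM in *Nt*-/- fasted replicate 5 (others 66.0 to 87.3). The villus enterocyte sums of the 2 fasted mice numbered 3, 16183 and 19478 CPM, were inside but near the top of the ranges of their groups (7989 to 16531 and 14647 to 19592 CPM). Other marker sums were at an end of the range. In *Nt*-/- fasted replicate 3, the proliferation (859 CPM), crypt stem cell (972), enteroendocrine (260), and tuft cell (57.8) sums were the lowest of the group. The leukocyte sum (210) was the highest. In *Nt*+/+ fasted replicate 3, the goblet cell sum (10956 CPM) was the highest. The part of cell make-up in these values was not tested.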

How the results depend on the processing

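Over 1100 values of single members under the alternatives, 1034 kept their direction and side of the threshold, 13 lost the call, 10 gained it, and 43 changed sign. The members called with fasting numbered 4 to 8 in *Nt*+/+ and 6 to 7 in *Nt*-/- mice, and the pathway genes 40 to 59 and 41 to 57, while all genes called ranged from 3022 to 5484 and from 3442 to 5672; with a mouse left out, members numbered 4 to 6 and 6. In fasted mice, 1 member (*Gclm*) was called between genotypes by DESeq2, 1 by the likelihood ratio test, and 0 to 1 with a mouse left out, and 1 pathway gene by DESeq2. Over all genes that comparison called 1 gene, but 77 by DESeq2, 41 by the likelihood ratio test, 4 without *Nt*-/- fasted replicate 1, and 0 with a floor of 10 counts per mouse or *Nt*+/+ fasted replicate 5 regrouped. The same 2 settings called 0 ad libitum, where DESeq2 and the likelihood ratio test called 3. *Gclm* with fasting in *Nt*+/+ mice also lost its call with no low-count filter (adjusted p = 0.101) and with that mouse regrouped (0.0999). The replicate block gave *Gsta4* a call in both genotypes (log2 fold change 0.673 and 0.639 by title number, 0.683 and 0.567 by file number) and *Txnrd1* a call in *Nt*+/+ mice by file number (0.175); it changed no other member's call. The cause was not tested for any of these. The signs that changed belonged to differences that were not called. Between ad libitum–fed genotypes, blocking by file number gave −0.031 for *Nfe2l2*, 0.002 for *Txnrd1*, and 0.022 for *Srxn1*, and a sex term gave 0.008 for *Srxn1*. For the difference in response, *Nfe2l2* was 0.001 by DESeq2, 0.132 blocked by file number, and 0.022 with the mouse regrouped, which gave −0.151 for *Gstm1*. Leaving out both fasted mice numbered 3 gave −0.082 for *Srxn1* with fasting in *Nt*+/+ mice, 0.004 for *Gpx2* between fasted genotypes, and 0.097 for *Gsta4* and 0.135 for *Gpx2* in the difference in response. With single mice left out, *Srxn1* ranged from −0.082 to 0.103 with fasting in *Nt*+/+ mice. Between fed genotypes, ranges were −0.036 to 0.089 for *Gclm*, −0.077 to 0.001 for *Txnrd1*, −0.085 to 0.078 for *Srxn1*, and −0.309 to 0.057 for *Gpx2*. Between fasted genotypes they were −0.068 to 0.201 for *Nfe2l2*, −0.014 to 0.171 for *Srxn1*, and −0.146 to 0.042 for the log2 ratio of *Gclc* to *Gclm*. In the difference in response they were −0.166 to 0.104 for *Nfe2l2*, −0.179 to 0.210 for *Gsta4*, −0.010 to 0.372 for *Gstm1*, and −0.318 to 0.049 for *Gpx2*. With 4 or 5 mice per group, the simulated recovery of small changes was partial, in a setting with fewer changed genes than were called here. Changes as small as those of *Srxn1* and *Nfe2l2* could have been missed.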
